A study of Homo sapiens with 8 samples.

Results

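DPPA2, DPPA3, DPPA4, L1TD1, LIN28A, LIN28B, POLR3G and TERT, 8 genes known from stem cells, were followed on exon arrays of NTera2/D1 cells. They were chosen by name, as stem-cell-restricted DPPA, RNA-binding, RNA polymerase III and telomerase genes, and are 8 of the 19426 genes that the arrays name. NTera2/D1 is 1 human embryonal carcinoma line, which leaves its stem-cell-like state when it is given retinoic acid (RA). All cells had received a small interfering RNA, either against RNF20 (siRNF20) or, in the controls, against the bacterial gene LacZ (siLacZ), and were kept for 72 h in 10 µM RA or in the solvent DMSO. RNF20 is a ubiquitin ligase that monoubiquitylates histone H2B. The 4 groups, DMSO siLacZ, RA siLacZ, DMSO siRNF20 and RA siRNF20, held 2 arrays each, described as biological duplicates and numbered GF117 and GF120, and no untransfected cells were analysed here.

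DPPA2 and DPPA4 are neighbouring genes on chromosome 3 whose products bind chromatin of early-embryo genes. L1TD1 is an RNA-binding protein derived from a LINE-1 retrotransposon, and LIN28A and LIN28B bind precursors of the let-7 microRNAs and keep them from being processed. POLR3G is a subunit of RNA polymerase III, the enzyme that makes transfer RNAs and other short RNAs, and its paralog POLR3GL takes its place in most differentiated cells. TERT is the catalytic subunit of telomerase. All are known from pluripotent stem cells or germ cells, and several are lost when these cells differentiate.

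Values are log2 intensities, and a gene's value on an array is the median over its array rows. Of the 8 genes 7 could be measured. The array lists LIN28A under its older symbol LIN28. All 11 rows of DPPA3 carry more than 1 gene symbol, and no value is given for it. The array labelled GF117 RA siLacZ correlated with the others at Pearson r = 0.135 to 0.239 across genes, against 0.908 to 0.975 among the other 7, and its median over 12 reference genes was 8.07, against 11.25 to 11.39. It was left out of the tests, so that RA siLacZ rests on its GF120 array, whose spread is taken to equal that of the other groups. RNF20, the check of the depletion, was 8.24, 8.10 and 8.10 on the siLacZ arrays tested and 5.89 to 6.48 on the 4 siRNF20 arrays. It was 6.08 on the array labelled GF117 RA siLacZ. Markers of the cells' state in part moved with RA: 6 of 7 retinoid response genes were called higher in siLacZ and in siRNF20 cells, and their median was 5.40 to 5.77 in DMSO and 8.29 to 8.68 in RA. RARB, 1 of those 6, was at 2.70 to 3.95 in DMSO and 9.44 to 9.92 on the RA arrays tested. Its DMSO values were below 3.97, the limit under which an array row counted as dim. It thus entered the test through its RA arrays, and its calls are no support for a rise. Of 7 neural genes 2 and 4 were called higher, with medians of 6.09 to 6.44 and 7.39 to 7.78. Of 7 stem-cell genes 5 and 4 were called lower, with medians of 9.71 to 9.76 and 7.01 to 8.56, while LEFTY1, a NODAL antagonist, was called higher (2.85 and 2.48). A gene was called when its adjusted p (limma, two-sided, Benjamini-Hochberg over the 18732 genes tested) was below 0.05.

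RA lowered POLR3G and L1TD1 in both siLacZ and siRNF20 cells and lowered DPPA2 and DPPA4 in siRNF20 cells. The DPPA4 call was marginal and was lost when any 1 DMSO array or the GF120 RA siRNF20 array was left out. In siLacZ cells DPPA2 and DPPA4 lay just outside the threshold, and both were called there when the GF number of the arrays was a block in the fit. Neither was called there when any 1 DMSO array was left out. LIN28A, LIN28B and TERT passed the test in neither siLacZ nor siRNF20 cells. In siLacZ cells 2 of 7 genes were called, both lower, where 3.91% of all genes were called in either direction and 2.03% lower. With the block these were 4 of 7, and 1792 of all genes in place of 733. In siRNF20 cells 4 of 7 were called, all lower, against 3.92% of all genes in either direction and 2.13% lower, and the block left the 4 of 7 called, with 1959 of all genes in place of 734. The median log2 change of the 7 genes was −0.83 with siLacZ and −0.71 with siRNF20, against −0.05 and −0.03 over all genes. Both comparisons cannot tell less RNA per cell from fewer cells that express a gene.

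**Figure D1:**
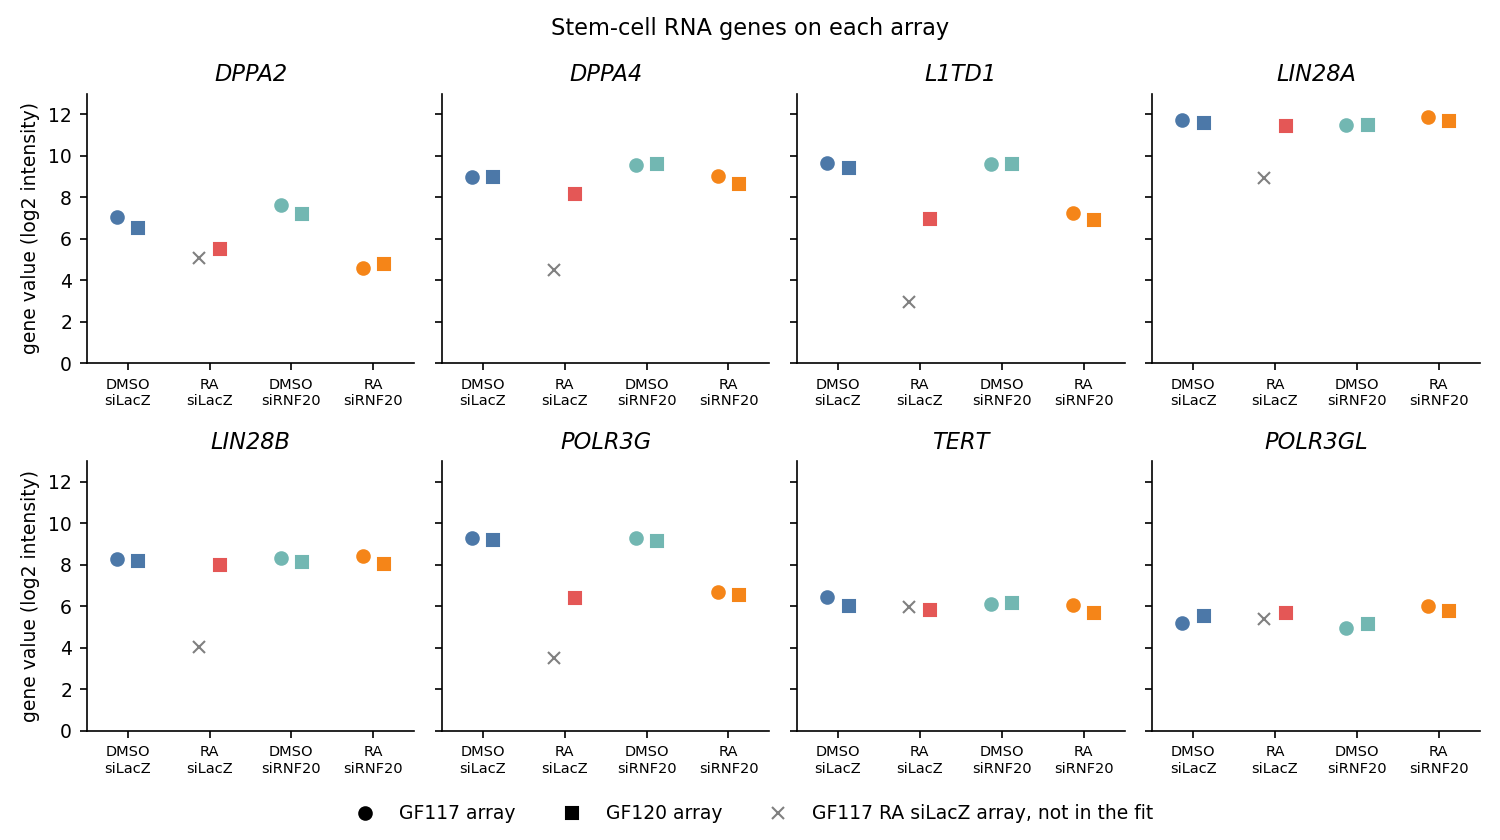
Gene values (log2 intensity, y axis) of the 7 measured genes and of POLR3GL on each array, by group on the x axis; circles are GF117 arrays, squares GF120 arrays, and crosses the array labelled GF117 RA siLacZ, which the tests leave out. POLR3G lies between 9.16 and 9.30 on the 4 DMSO arrays and between 6.42 and 6.68 on the 3 RA arrays tested, while LIN28A stays between 11.44 and 11.85 on those 7 arrays.

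POLR3G was 9.30 and 9.21 in DMSO siLacZ cells and 6.42 on the GF120 array of RA siLacZ cells. In siRNF20 cells it was 9.30 and 9.16 in DMSO and 6.68 and 6.56 in RA. All 3 RA arrays lay well below all 4 DMSO arrays, and the 2 siRNA treatments overlapped within DMSO. RA lowered POLR3G by 7.11-fold in siLacZ cells (log2 difference −2.83, SE 0.20, adjusted p = 0.000149) and by 6.10-fold in siRNF20 cells (−2.61, SE 0.17, adjusted p = 5.01e-05). The array labelled GF117 RA siLacZ read 3.52, and with all 8 arrays in the fit POLR3G was at −4.32 in siLacZ cells and was not called (adjusted p = 0.363), as no gene was.

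The paralog POLR3GL was 5.20 and 5.55 in DMSO siLacZ cells and 5.69 in RA, and in siRNF20 cells 4.94 and 5.14 in DMSO against 6.04 and 5.76 in RA. The RA arrays were the higher ones in both, and how many of all genes do the same was not counted. The differences of 0.31 (SE 0.31, adjusted p = 0.714) and 0.86 (SE 0.25, adjusted p = 0.113) did not pass the test, though the second was called with the block (adjusted p = 0.0354). Of the 31 listed genes of RNA polymerase III and its factors 30 were measured, and POLR3G was the one called in either comparison, lower in both. Over all genes 3.91% and 3.92% were called in the 2 comparisons, and 1792 and 1959 of 18732 with the block. Of the list the block called 3 lower in siLacZ cells, and 5 lower and 1 higher in siRNF20 cells. The other 29 lay between −1.02 (GTF3C6) and 0.42 (POLR3B) with RA in siLacZ cells and between −0.62 (BRF2) and 0.86 (POLR3GL) in siRNF20 cells, with medians of −0.05 and −0.21.

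L1TD1 was 9.63 and 9.42 in DMSO siLacZ cells and 6.95 in RA. With siRNF20 it was 9.60 and 9.63 in DMSO and 7.26 and 6.88 in RA. As with POLR3G, the RA arrays lay below all DMSO arrays and the siRNA groups overlapped. RA arrays lay below the DMSO arrays of the same siRNA for 41.9% (siLacZ) and 24.8% (siRNF20) of all genes. The fall was 5.93-fold in siLacZ cells (−2.57, SE 0.22, adjusted p = 0.000325) and 5.81-fold in siRNF20 cells (−2.54, SE 0.18, adjusted p = 9.26e-05). The array labelled GF117 RA siLacZ read 2.94, and with all 8 arrays the siLacZ difference was −4.57 (adjusted p = 0.440).

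Among 28 measured RNA regulators of stem cells, a list that holds L1TD1, LIN28A and LIN28B, 2 were called higher and 4 lower with RA in siLacZ cells. In siRNF20 cells 1 was called higher and 3 lower, where the block called 3 higher and 5 lower. Of all genes 3.91% and 3.92% were called in siLacZ and siRNF20 cells, and 1792 and 1959 of 18732 with the block. Besides L1TD1 the largest changes in the list were those of MBNL2, ESRP1 and RBM47, all of which are splicing or editing factors. MBNL2, a splicing factor of differentiated cells, rose by 3.64 (SE 0.32, adjusted p = 0.000353) in siLacZ and by 1.998 (SE 0.26, adjusted p = 0.00260) in siRNF20 cells. It started from a dim 3.86 to 4.27 in DMSO, and over its brighter rows alone the differences were 1.40 and 1.04 and were not called (adjusted p = 0.0888 and 0.123). ESRP1, an epithelial splicing regulator, fell by 1.62 in siLacZ (SE 0.22, adjusted p = 0.00310) and by 1.28 in siRNF20 cells (SE 0.18, adjusted p = 0.00332). RBM47 fell by 1.47 in siLacZ (SE 0.30, adjusted p = 0.0248) and by 1.96 in siRNF20 cells (SE 0.24, adjusted p = 0.00181). For RBM47 the siLacZ call did not hold with the GF117 or the GF120 DMSO siLacZ array left out (adjusted p = 0.130 and 0.0896).

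DPPA2 was 7.04 and 6.50 in DMSO siLacZ cells and 5.48 in RA siLacZ cells. In siRNF20 cells it was 7.61 and 7.21 in DMSO and 4.59 and 4.77 in RA. Thus among the arrays tested the siRNF20 arrays were the highest in DMSO and the lowest in RA. Of all genes 14.6% had siRNF20 above siLacZ arrays in DMSO, and 33.9% had them below in RA. The array labelled GF117 RA siLacZ read 5.07. RA lowered DPPA2 by 6.64-fold in siRNF20 cells (−2.73, SE 0.26, adjusted p = 0.000412). In siLacZ cells the difference of −1.29 (SE 0.31, adjusted p = 0.0561) did not pass, and with the GF number as a block it was −1.17 and was called (adjusted p = 0.0194). Without the GF117 or the GF120 RA siRNF20 array the same −1.29 passed. The siLacZ difference did not pass when any 1 DMSO array was left out, where it ran from −1.56 to −1.02. It also did not pass with the mean over rows (−1.23) or over its brighter rows alone (−1.08).

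DPPA4 was 8.98 and 8.99 in DMSO siLacZ cells and 8.16 in RA, and 9.53 and 9.58 in DMSO siRNF20 cells and 9.04 and 8.66 in RA. RA values lay below DMSO values within each siRNA, as for 41.9% of all genes with siLacZ and 24.8% with siRNF20. The siRNF20 values lay above siLacZ values within each treatment, as for 14.6% of all genes in DMSO and 33% in RA. The groups of RA siRNF20 and DMSO siLacZ overlapped. In siRNF20 cells RA lowered DPPA4 by 1.63-fold (−0.71, SE 0.17, adjusted p = 0.0491). The adjusted p of this call rose to between 0.0853 and 0.256 when any 1 array of the DMSO groups or the GF120 RA siRNF20 array was left out, and the difference without that last array was −0.52. In siLacZ cells the difference was −0.83 (SE 0.20, adjusted p = 0.0585). It was called with the block (−0.77), and it passed without the GF117 or the GF120 RA siRNF20 array. It did not pass when any 1 DMSO array of either siRNA was left out.

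The promoters of DPPA2, DPPA4 and L1TD1 are shown because these genes fell together in RA siRNF20 cells. Each sequence runs from 250 bases before to 50 after a start given by RefSeq (assembly GRCh38.p14), 5′ to 3′ on the gene's strand. The motifs searched, on both strands, were a GC box (GGGCGG), the half-site of nuclear receptors (AGGTCA), an E-box (CACGTG), an octamer (ATGCAAAT) and a SOX motif (CATTGT). None of these letters overlap in the 3 windows printed, and matches are in capitals.
DPPA2, chr3:109316468-109316767, minus strand: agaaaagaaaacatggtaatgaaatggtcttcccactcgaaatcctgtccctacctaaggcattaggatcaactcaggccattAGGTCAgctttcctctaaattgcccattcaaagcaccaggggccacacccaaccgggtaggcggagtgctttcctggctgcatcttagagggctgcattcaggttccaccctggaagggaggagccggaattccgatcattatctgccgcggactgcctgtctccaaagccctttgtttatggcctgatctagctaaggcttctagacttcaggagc
DPPA4, chr3:109337497-109337796, minus strand: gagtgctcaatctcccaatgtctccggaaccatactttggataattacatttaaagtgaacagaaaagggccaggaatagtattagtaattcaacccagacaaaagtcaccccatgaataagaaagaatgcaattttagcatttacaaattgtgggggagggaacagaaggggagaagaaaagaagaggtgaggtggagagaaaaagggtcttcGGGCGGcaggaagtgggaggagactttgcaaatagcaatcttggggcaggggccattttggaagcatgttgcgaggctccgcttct
L1TD1, chr1:62194599-62194898, plus strand: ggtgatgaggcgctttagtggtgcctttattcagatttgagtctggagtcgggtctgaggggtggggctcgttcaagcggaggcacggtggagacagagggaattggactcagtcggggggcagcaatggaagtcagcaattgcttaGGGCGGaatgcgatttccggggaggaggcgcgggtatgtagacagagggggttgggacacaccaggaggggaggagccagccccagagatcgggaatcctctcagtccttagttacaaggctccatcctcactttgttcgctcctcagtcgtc
The DPPA2 window holds 1 match, the nuclear receptor half-site, which 13.8% of the 35116 promoters in the RefSeq table hold. The DPPA4 and L1TD1 windows hold 1 GC box each, as 45.0% of all promoters do. E-box, octamer and SOX letters, present in 7.26%, 1.77% and 10.8% of promoters, are in none of these windows. A match is a description of the letters and not a site. DPPA2 and DPPA4 lie on the same strand of chromosome 3 with 9626 bases between them. The RefSeq table matched 6 of the 8 genes, all but LIN28A and POLR3G.

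The DPPA and early-embryo list, to which DPPA2, DPPA4 and L1TD1 belong, had 6 of 19 measured genes called in siLacZ cells and 8 of 19 in siRNF20 cells, all lower with RA. Over all genes 2.03% and 2.13% were called lower. The median change of the list was −0.77 and −0.49. Its other 16 genes had 5 called with each siRNA, with medians of −0.19 and −0.41. Among its other genes NANOG, a core transcription factor of pluripotency, changed by −3.82 (SE 0.19, adjusted p = 4.36e-05) in siLacZ and by −2.76 (SE 0.16, adjusted p = 3.38e-05) in siRNF20 cells. CRIPTO, a co-receptor for NODAL, changed by −3.26 (SE 0.26, adjusted p = 0.000223) in siLacZ and by −2.02 (SE 0.21, adjusted p = 0.000740) in siRNF20 cells. GDF3, a growth factor of the TGF-beta family, changed by −2.36 and −1.84, and KLF4, a transcription factor, by −1.85 and −2.16. NANOG and CRIPTO have near-identical copies in the genome whose signal they may share.

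LIN28A was 11.71 and 11.58 in DMSO siLacZ cells and 11.44 in RA, and 11.50 and 11.50 in DMSO siRNF20 cells and 11.85 and 11.68 in RA. The RA array of siLacZ cells was the lowest of the 7 and the RA arrays of siRNF20 cells lay above their DMSO arrays. How many of all genes do the same was not counted. The RA difference was −0.20 (95% interval −0.48 to 0.08, adjusted p = 0.487) in siLacZ and 0.27 (0.04 to 0.50, adjusted p = 0.231) in siRNF20 cells. LIN28B was 8.29 and 8.20 in DMSO siLacZ cells, 7.99 in RA, 8.32 and 8.13 in DMSO siRNF20 cells and 8.44 and 8.02 in RA. DMSO and RA arrays of siRNF20 cells overlapped. Its RA differences were −0.25 (−0.78 to 0.27, adjusted p = 0.685) and 0.01 (−0.42 to 0.44, adjusted p = 0.994). These intervals leave out a fall of the size seen for POLR3G or L1TD1 in the same cells.

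The let-7 list, of LIN28 partners, processing enzymes and targets, had 22 of 24 genes measured. In siLacZ cells 1 was called higher and 1 lower with RA, and in siRNF20 cells 1 higher, against 3.91% and 3.92% of all genes. With the block these were 2 and 2, and 3 and 2, against 1792 and 1959 of all 18732 genes. The one called higher was MIR99AHG in both, the host transcript of let-7c, miR-99a and miR-125b-2 on chromosome 21 (chr21:16070488-16631727, GRCh38.p14). Its array rows measure the host and not the mature microRNAs. It was 2.03 and 3.28 in DMSO siLacZ, 7.73 in RA siLacZ, 3.16 and 3.16 in DMSO siRNF20 and 6.92 and 6.12 in RA siRNF20 cells. All 4 DMSO values were below the limit of 3.97 under which a row counted as dim, and the 3 RA values above it. The gene thus entered the test through its RA arrays, its 2 calls are no support for a rise, and no size of the difference is given for it. The call in siRNF20 cells was lost with the GF117 RA siRNF20 array left out (adjusted p = 0.157).

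The mature 5p sequences that lie within MIR99AHG are given from RefSeq, as RNA, because LIN28A and LIN28B act on the precursor of the first of them. Capitals mark the seed, bases 2 to 8.
hsa-let-7c-5p: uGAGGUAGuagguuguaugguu
hsa-miR-99a-5p: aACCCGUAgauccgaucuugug
hsa-miR-125b-5p: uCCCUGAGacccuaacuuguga
The 3 seeds differ. The seed of let-7c is shared by 9 of 9 let-7 family 5p names in the table. TRIM71, a let-7 target and RNA-binding ubiquitin ligase of stem cells, was the gene of the list that fell. It was 10.26 and 10.02 in DMSO siLacZ cells and 9.11 in RA (−1.03, SE 0.20, adjusted p = 0.0221). In siRNF20 cells it was 9.96 and 10.13 in DMSO and 9.63 and 9.26 in RA (−0.60, SE 0.16, adjusted p = 0.0875, and 0.0152 with the block). The siLacZ call was lost without the GF117 or the GF120 DMSO siLacZ array (adjusted p = 0.124 and 0.0514).

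TERT was 6.43 and 6.03 in DMSO siLacZ cells and 5.81 in RA, and 6.11 and 6.17 in DMSO siRNF20 cells and 6.08 and 5.68 in RA. The RA arrays were the lower ones within each siRNA, by little, as for 41.9% of all genes with siLacZ and 24.8% with siRNF20. The differences of −0.42 (95% interval −1.09 to 0.25, adjusted p = 0.566) and −0.26 (−0.80 to 0.29, adjusted p = 0.729) did not pass the test. The array labelled GF117 RA siLacZ read 5.98.

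Over all genes 3.91% and 3.92% were called with RA in siLacZ and siRNF20 cells, and 1792 and 1959 of 18732 with the block. None of 20 measured genes of telomerase and shelterin was called with RA in siLacZ cells, and 2 fell in siRNF20 cells. With the block 3 and 4 were called, all lower. TERF1, a shelterin protein that binds telomeric DNA, fell by 1.48 there (SE 0.25, adjusted p = 0.0107) and was at −1.18 in siLacZ cells (SE 0.31, adjusted p = 0.0759, and 0.00875 with the block). TERF1 was not called when the GF117 DMSO siRNF20 array was left out (adjusted p = 0.0830). NOP10, a protein of the telomerase and other box H/ACA RNA particles, fell by 0.72 (SE 0.16, adjusted p = 0.0389) and was at 0.00 in siLacZ cells (SE 0.20, adjusted p = 0.996). Its call was lost without any 1 of the 6 arrays that could be left out, with adjusted p between 0.0620 and 0.356. DKC1 and GAR1, other proteins of the same particle, were at −0.58 and −0.89 in siLacZ and −0.54 and −0.25 in siRNF20 cells and were not called.

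**Figure D2:**
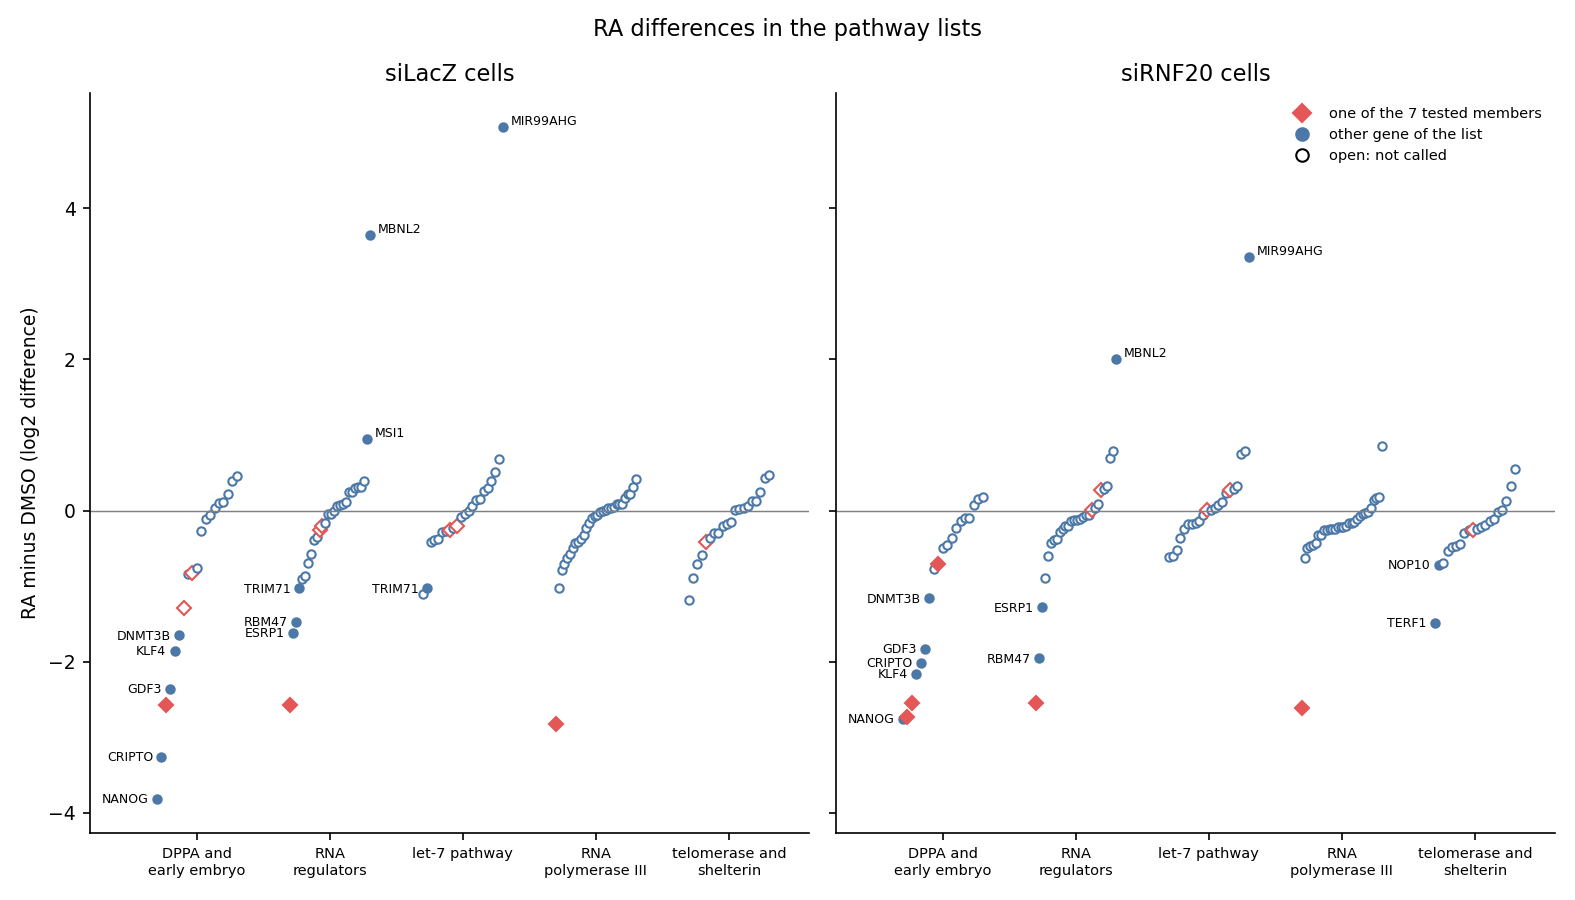
RA minus DMSO differences (log2, y axis) of every measured gene of the 5 lists on the x axis, sorted within each list, in siLacZ cells at left and siRNF20 cells at right. Diamonds are the genes described here, filled points the genes called, with names for the others called. MIR99AHG is drawn at its fitted value although its DMSO values were below the dim limit. POLR3G lies at −2.83 and −2.61, apart from the other 29 genes of its list, of which none lies below −1.02.

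Depletion of RNF20 by itself called none of the 7 genes in DMSO or in RA, where it called 0% and 0.0107% of all genes (0 and 2 genes, with 519 and 1485 genes at an unadjusted p below 0.05). RNF20 itself, at −1.94 (SE 0.23, adjusted p = 0.237) in DMSO and −2.02 (SE 0.29, adjusted p = 0.110) in RA, did not pass either. With the block RNF20 was called in both (adjusted p = 0.00152 and 0.00287), as were 1 and 232 of all genes, and still none of the 7. Of the 7 genes 2 in DMSO and 3 in RA had an unadjusted p below 0.05. DPPA2 was 1.55-fold higher with siRNF20 in DMSO (0.64, 95% interval 0.06 to 1.21, adjusted p = 0.9997) and DPPA4 1.49-fold (0.57, 0.20 to 0.95, adjusted p = 0.9997). Both DPPA2 arrays of DMSO siRNF20 lay above both of DMSO siLacZ, and so did those of DPPA4, as for 14.6% of all genes. In RA the 2 genes parted. DPPA2 was at −0.80 (−1.51 to −0.10, adjusted p = 0.586), its siRNF20 arrays below the siLacZ array as for 33.9% of all genes, and over its brighter rows alone at −0.19. DPPA4 was at 0.69 (0.24 to 1.15, adjusted p = 0.399), its siRNF20 arrays above the siLacZ array as for 33% of all genes. LIN28A was at −0.14 in DMSO (−0.37 to 0.08) and 0.33 in RA (0.05 to 0.61, adjusted p = 0.575).

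The 2 GF numbers gave the RA changes of siRNF20 cells separately. POLR3G changed by −2.62 within GF117 and −2.59 within GF120, L1TD1 by −2.34 and −2.74, DPPA2 by −3.02 and −2.44, and DPPA4 by −0.49 and −0.92. LIN28A was at 0.36 and 0.18, and TERT at −0.03 and −0.49. LIN28B, at 0.125 and −0.11, was the gene whose sign differed between the numbers. The siRNF20 difference in DMSO was 0.56 and 0.71 for DPPA2 and 0.56 and 0.59 for DPPA4, above 0 in both numbers.

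L1TD1, POLR3G, LIN28B and TERT lay between −0.09 and 0.09 in DMSO and between 0.07 and 0.24 in RA with siRNF20. For POLR3G in RA the interval ran from −0.26 to 0.66 and for L1TD1 from −0.38 to 0.62. A difference of up to those sizes could not be told from 0 with these arrays.

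The test of whether the RA response differed with siRNF20 called 0% of all genes, with 737 genes at an unadjusted p below 0.05, and none of the 7. With the block it called 4 genes and again none of the 7. The response with siRNF20 minus that with siLacZ was farthest from 0 for DPPA2, at −1.44 (SE 0.40, 95% interval −2.35 to −0.53, unadjusted p = 0.00570, adjusted p = 0.936). Within the GF120 arrays, RA changed DPPA2 by −1.02 with siLacZ and by −2.44 with siRNF20. LIN28A was at 0.47 (SE 0.16, 0.11 to 0.83, adjusted p = 0.9994). For L1TD1, POLR3G, DPPA4, LIN28B and TERT the difference lay between 0.03 and 0.26, with intervals that included 0. That of L1TD1 ran from −0.62 to 0.67 and that of POLR3G from −0.37 to 0.82.

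**Figure D3:**
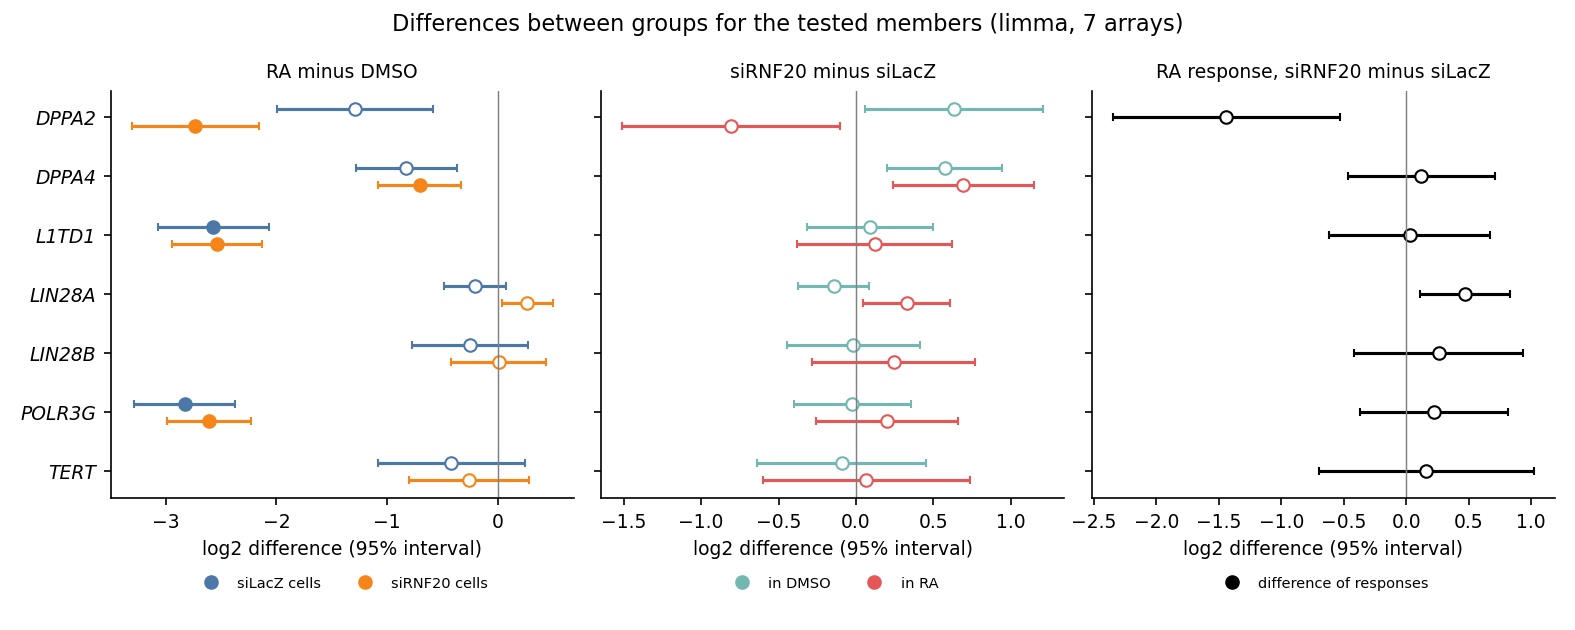
Fitted log2 differences (points) with 95% intervals (bars) for the 7 genes, for RA minus DMSO in siLacZ and siRNF20 cells, for siRNF20 minus siLacZ in DMSO and RA, and for the RA response with siRNF20 minus that with siLacZ; filled points passed an adjusted p of 0.05. The 6 filled points are L1TD1 and POLR3G in both cell groups and DPPA2 and DPPA4 in siRNF20 cells, and the 2 RA differences of DPPA2 are −1.29 and −2.73.

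The single array rows of a gene, which the array places on its exons, were also read one by one. They share the RNA of each array and are no replicates. For POLR3G the RA arrays lay below all DMSO arrays of the same siRNA in 11 of 11 rows with siLacZ and with siRNF20, for L1TD1 in 14 of 14, and for DPPA4 in 14 of 14. For DPPA2 they did so in 7 and 8 of 8. Over all rows this share was 36.7% in siLacZ and 22.2% in siRNF20 cells, and over all gene values 41.9% and 24.8%. The rows of DPPA2 changed by −1.79 to −0.67 in siLacZ cells and by −3.04 to −2.18 in siRNF20 cells, so that the 2 ranges did not meet. Those of L1TD1 (−3.52 to −2.33 and −3.35 to −2.07), POLR3G (−3.25 to −2.26 and −3.38 to −1.81) and DPPA4 (−1.50 to −0.48 and −1.40 to −0.27) overlapped. All siLacZ row changes rest on the same single RA array. How many of all genes have row ranges that do not meet was not counted. Over the brighter rows of DPPA2 alone, the response with siRNF20 minus that with siLacZ was −1.07.

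In DMSO the mean with siRNF20 was the higher one in 8 of 8 rows of DPPA2, 14 of 14 of DPPA4, 12 of 14 of L1TD1 and 8 of 11 of POLR3G, against 45.2% of all rows. In RA it was the higher one in 0 of 8, 13 of 14, 11 of 14 and 10 of 11, against 43.1% of all rows. In LIN28A, LIN28B and TERT it was the higher one in 1 of 10, 2 of 10 and 14 of 32 rows in DMSO. In RA these genes had 4 of 10, 9 of 10 and 16 of 32. LIN28A rows had a median RA change of 0.02 in siLacZ and 0.16 in siRNF20 cells, with RA below DMSO in 4 and 0 of 10 rows. In LIN28B this was so in 8 and 1 of 10 rows, with medians of −0.36 and −0.0004. TERT, with 32 rows, had the widest range of RA changes, its rows running from −1.52 to 0.89 and from −1.61 to 0.73, with RA below DMSO in 23 and 11. Of POLR3GL only 7 rows were kept, and its others were dropped as dim. RA lay below DMSO in 0 of these 7 rows with either siRNA, with medians of 0.69 and 0.90. The first of these is above the 0.31 of its gene value in siLacZ cells.

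**Figure D4:**
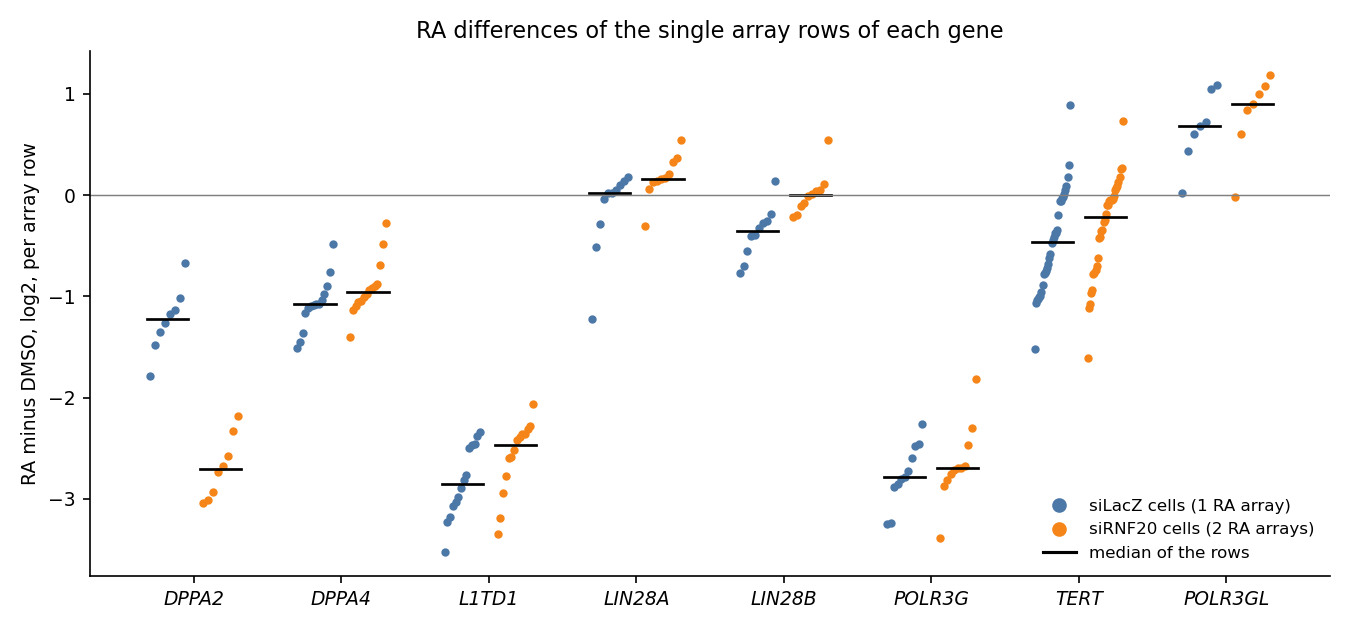
RA minus DMSO differences (log2, y axis) of every array row kept for each gene on the x axis, in siLacZ cells (1 RA array) and siRNF20 cells (2 RA arrays), sorted within each gene, with the median of the rows as a line. All rows of POLR3G and L1TD1 lie at or below −1.81, and the DPPA2 rows of siRNF20 cells, −3.04 to −2.18, lie below those of siLacZ cells, −1.79 to −0.67.

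The genes whose values ran most like these were found by Pearson correlation over the 7 arrays, for the 4 genes whose group means spanned more than 1 on the log2 scale. The arrays fall into DMSO and RA sets, so that any gene with a strong RA change scores high, and no test is given. For L1TD1 they were PTGS1 (r = 0.998), THY1 (0.998) and POLR3G (0.997), and for POLR3G they were THY1 (0.998), ETV4 (0.997) and PTGS1 (0.997). For DPPA2 they were LRAT (r = 0.994), SLC43A1 (0.993) and A4GALT (0.991). LRAT, which esterifies retinol, was at −0.91 with RA in siLacZ and −1.60 in siRNF20 cells. For DPPA4 they were ADAMTS1 (r = 0.982), BORCS7 (0.980) and IGFBP7 (0.973). Among the 7 genes themselves L1TD1 and POLR3G were the closest pair (0.997), while DPPA2 with DPPA4 came to 0.648.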

How the data were processed

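Total RNA of 8 NTera2/D1 samples was hybridised to Affymetrix Human Exon 1.0 ST arrays, 1 array a sample. The authors deposited a linear intensity for each of 1384231 array rows, and their background correction, normalization and tools are not given in the sources used here. The number of arrays limits the precision. Rows were named through the platform's gene table: 354600 had 1 symbol and were used, the other named rows had several, and symbols were updated through RefSeq to 19426 genes. Intensities were taken as log2 and not normalized again. Only rows with a mean above that of the median row (3.97 on the log2 scale) were kept. Their median gave the gene value, for 18732 genes.

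limma (version 3.58.1, R 4.3.3, package data.table in version 1.17.8) fitted the 4 group means to 7 arrays, without the array labelled GF117 RA siLacZ, with an intensity trend. The script was tested on simulated data. In the 3 pairs of groups with both numbers, arrays that share a GF number had deviations from their group means that correlated at 0.297, 0.301 and 0.364. What the numbers mean is not stated in the labels, so that the number is a block in an alternative fit, given beside the calls it changes. Adjusted p values are Benjamini-Hochberg over all genes tested. Figures were drawn with Python 3.11.15, pandas 2.3.3 and matplotlib 3.10.9. The members and lists were chosen with earlier results of these data known. Named were the 8 genes, POLR3GL, RNF20, in each list up to 4 called genes with the largest changes, and 3 genes most like each gene that spanned over 1 on the log2 scale; DKC1, GAR1, GTF3C6, POLR3B and BRF2 and the further values of GDF3 and KLF4 were added after their values were seen. Of the lists, MIR100HG, MIRLET7BHG, TEN1 and DPPA3 had no row with 1 symbol, and some listed genes are not reported here.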

Additional observations from a re-analysis of the deposited data

How the results depend on the processing

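Counts of the 7 genes called with RA changed as follows. With all 8 arrays the counts fell from 2 to 0 in siLacZ and from 4 to 0 in siRNF20 cells, as 0 of 18747 genes were then called in any comparison (1510 and 504 with an unadjusted p below 0.05 for RA in siLacZ and siRNF20). In siLacZ cells the count was 4 with the GF number as a replicate block, 4 with quantile normalization, 4 with the arrays of the compared groups alone, and 2 to 4 with 1 array left out, DPPA2 and DPPA4 being the genes gained. RA siLacZ GF120 could not be left out, since its group would be empty. The counts of 0 in the other 3 comparisons stayed at 0 under every alternative. L1TD1 and POLR3G in both cell groups, and DPPA2 in siRNF20 cells, were called under every alternative of the 7 arrays that has a test. Their differences ran from −2.83 to −2.42, −2.73 to −2.35, −2.88 to −2.62, −2.79 to −2.43 and −2.93 to −2.16. The DPPA4 call in siRNF20 cells was also lost with no filter (adjusted p = 0.0574), the stricter filter (0.0554), no trend (0.152) and the compared groups alone (0.0858). In siLacZ cells the mean over rows gave DPPA4 −1.08 (adjusted p = 0.0111) and rows centred first −1.06 (0.00625).

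Differences near 0 changed sign under some settings, none of them called, and the cause was not tested. With rows centred first, LIN28A in RA siLacZ went from −0.20 to 0.0324, LIN28B in RA siRNF20 from 0.01 to −0.0219 (−0.17 to 0.22 with 1 array left out) and POLR3G with siRNF20 in DMSO from −0.02 to 0.12. That POLR3G value was 0.0585 with all 8 arrays or the stricter filter, 0.14 with the mean over rows, and −0.0679 to 0.12 with 1 array left out. With siRNF20 in DMSO, LIN28B went from −0.02 to 0.0072 with all 8 arrays, the stricter filter or the compared groups alone, to 0.0005 with quantile normalization, and to between −0.11 and 0.0758 with 1 array left out. In DMSO the 1-array ranges were −0.0144 to 0.20 for L1TD1 and −0.29 to 0.11 for TERT. With siRNF20 in RA, TERT went from 0.07 to −0.0155 with all 8 arrays, −0.0564 with the block and −0.10 with the stricter filter. The 1-array ranges there were −0.13 to 0.27 for TERT and −0.0682 to 0.31 for L1TD1. The difference between responses was −0.0653 for L1TD1 with the block and −0.0357 for TERT with the stricter filter, with 1-array ranges of −0.16 to 0.22 for L1TD1, −0.042 to 0.36 for TERT and −0.0688 to 0.31 for DPPA4.

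With the GF number as a replicate block, calls over all genes went from 733 to 1792 (RA in siLacZ), 734 to 1959 (RA in siRNF20), 0 to 1 and 2 to 232 (siRNF20 in DMSO and in RA) and 0 to 4 (difference between responses), and DPPA2 and DPPA4 in siLacZ cells had adjusted p of 0.0194 and 0.0204. It changed no other call of the 7 genes, and called POLR3GL in siRNF20 cells and RNF20 in both siRNA comparisons. Calls over all genes for RA in siLacZ fell to 456 with no trend and to 317 and 389 without the GF117 or the GF120 DMSO siLacZ array. For RA in siRNF20 they fell to 324 and 371 without either DMSO siRNF20 array. With the compared groups alone siRNF20 in RA gave 48 calls.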
